A study of Mus musculus with 8 samples.

Results

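Genes whose level was highest under the combination of nutrient restriction and retinoic acid (NRRA) in cultured mouse spermatogonia are described here. They were chosen by their measured values, 90 of the 55421 genes in the table. A gene was kept when its mean in NRRA was at least 2 CPM (a gene's reads relative to all reads counted in its library, each library scaled to the same total) and when that mean plus 0.5 was at least 2 times each other group mean plus 0.5. Of all genes, 14969 reached 2 CPM in NRRA. Because the choice used all 8 libraries, every value that sets NRRA against another group is a description of the chosen genes without a test, while RA, nutrient restriction and vehicle were compared with each other by a test.

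The cultures were spermatogonia from testes of 6-day-old pups of the C57BL/6XDBA/2 F1 hybrid background, expanded on irradiated mouse embryonic fibroblasts (MEFs), with 2 libraries for each of 4 groups. Veh received vehicle in complete spermatogonial medium, RA had 100 nM retinoic acid added to it, NR received medium made of 10% complete medium and 90% Earle's balanced salt solution (EBSS), and NRRA received that diluted medium with 100 nM retinoic acid, each for 2 days. All 4 groups carried the feeder cells, which come from outbred CF1 mice, and all were supplied with the growth factors GDNF and bFGF, diluted with the rest of the medium in NR and NRRA. The study describes the sequenced libraries as independent biological replicates. Each library holds the RNA of every cell in the dish, so fewer cells of a type and less RNA per cell cannot be told apart, and no library of feeder cells alone or of germ cells alone was analysed here.

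Retinoic acid is a derivative of vitamin A that enters cells, is carried by binding proteins such as CRABP2 and activates nuclear receptors of the RAR and RXR families, which bind DNA at retinoic acid response elements. In the testis it starts the differentiation of spermatogonia and switches on *Stra8*, a regulator of entry into meiosis, and in skin and connective tissue it acts on keratinocytes and fibroblasts. EBSS supplies salts and glucose without amino acids, so its use as the main part of the medium starves cells of amino acids and also dilutes serum components and growth factors.

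Library totals ran from 19261333 to 30023585 counts, so that 1 CPM stood for 19 to 30 reads. The label of the cultures was checked with 15 germ cell markers, which were all detected and whose summed level was 1540 to 1570 CPM in Veh and 2020 to 2080 CPM in NRRA, and with 20 markers of fibroblasts, which summed to 23100 to 23200 CPM in Veh and 30600 to 31300 CPM in NRRA. Replicate libraries differed by more than sampling noise in every group, least for NR (chi-square per gene 1.58) and most for Veh (3.93).

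The 90 genes together took 0.365% and 0.366% of the counts in the NRRA libraries, against 0.053% and 0.0536% in Veh, 0.0944% and 0.0931% in RA, and 0.102% and 0.105% in NR. RA and NR thus lay close to each other and above Veh in this sum. The lower of the 2 NRRA libraries was above the highest of the other 6 libraries for each of the 90, and it was at least 2 times that library on the CPM plus 0.5 scale for 62. Because the rule chose the genes by these same libraries, neither count is a result about them. Between the NRRA replicates the median fold was 1.07 and the largest was 1.36, for *Paqr9*, a progestin and adipoQ receptor family member.

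The genes just inside the ratio threshold were *Bmp6* and *Dtx4* at 2.007 and *Ppp1r12b* at 2.012. Just outside were *Dpp4*, a membrane peptidase related to *Fap*, and *Evpl*, which encodes envoplakin of the cornified envelope, both at 1.988, and *Tmem86a* at 1.981. At the CPM threshold, *Art2a* at 2.16 CPM, *Atp12a* at 2.21 CPM and *1700003D09Rik* at 2.53 CPM were the lowest kept, and *Gm536* at 1.96 CPM, *Adra1b* at 1.85 CPM and *Nkain3* at 1.85 CPM were left out. When the rule was applied to replicate 1 of each group alone, 97 genes passed and 69 of them passed again in replicate 2, where all 97 had a ratio above 1, with a median of 2.45. In the other direction 98 genes passed in replicate 2 and 69 of them passed in replicate 1, with a median ratio of 2.43.

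**Figure D1:**
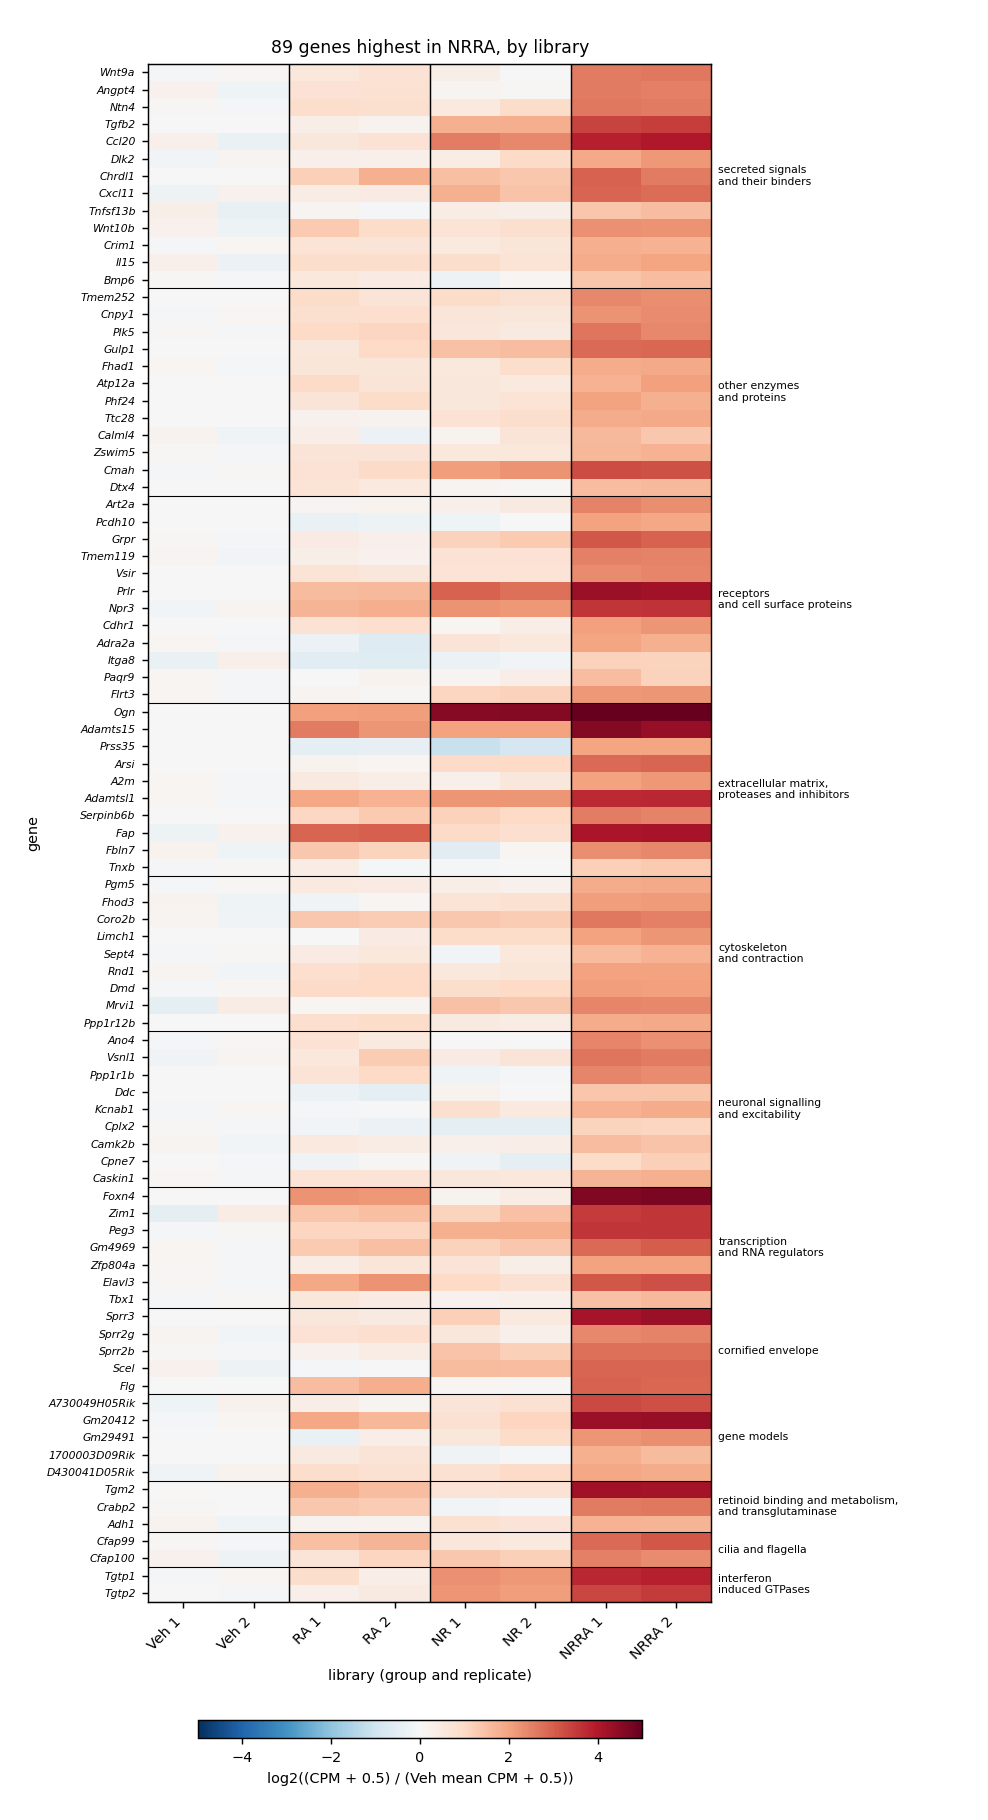
Level of 89 of the 90 genes (rows, grouped by role) in the 8 libraries (columns), as log2 of CPM plus 0.5 over the Veh mean CPM plus 0.5, with colours saturating at 5. The 2 NRRA columns are the darkest in every row, and RA and NR columns are coloured in different rows, such as *Fap* and *Foxn4* in RA and *Ogn* and *Tgtp1* in NR.

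Many of the 90 were already called higher with a single treatment, so being highest in NRRA does not mean being present there alone. With RA against Veh, 33 of the 90 genes were called higher (36.7%, against 4.74% of the 20477 genes tested) and 0 were called lower (2.75% of all genes tested were), where a call needs a Benjamini-Hochberg adjusted p under 0.05 in edgeR's quasi-likelihood test together with at least a 2-fold difference. In that comparison 5 of the 90 were lower at an unadjusted p under 0.05 whatever their fold, and DESeq2 also called 0 lower. With NR against Veh, which shares the Veh libraries, 36 were called higher (40.0%, against 5.33% of all genes tested) and 1 was called lower (1.11%, against 2.96%). All 90 passed the filter on low counts, and 88 of them passed it also without the NRRA libraries. The other members, *Sprr3* and *Art2a*, passed through their NRRA level alone and both are among the 36, so that 34 of 88 were called higher in NR vs Veh without them, against 5.32% of the 19563 genes that passed in this way.

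The median log2 fold change of the 90 was 0.82 in RA vs Veh, where the median of all genes tested was -0.019, and 77 of the 90 lay above 0. It was 0.94 in NR vs Veh, where the median of all genes was 0.006, and 78 lay above 0. RA against NR had no common direction, with a median of -0.02 for NR vs RA, 15 genes called higher in NR (16.7%, against 6.87% of all genes tested) and 10 called lower (11.1%, against 5.62%). Among the 3 other groups the highest mean was that of RA for 44 of the 90, of NR for 41 and of Veh for 5, namely *Prss35*, *Pcdh10*, *Itga8*, *Cplx2* and *Cpne7*.

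**Figure D2:**
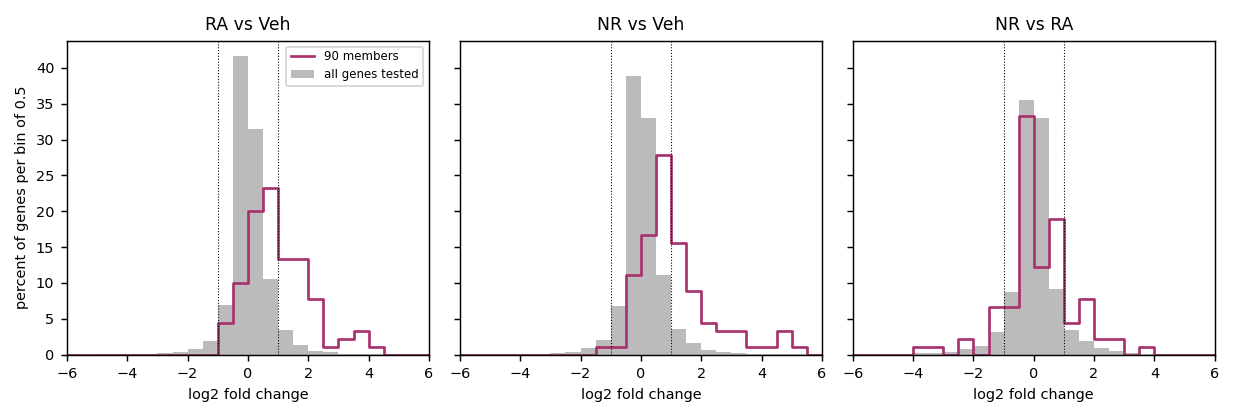
Share of genes (vertical axis, percent per bin of 0.5) by log2 fold change (horizontal axis) for RA vs Veh, NR vs Veh and NR vs RA, with the 20477 genes tested in grey and the 90 genes as a line. Dotted lines mark a fold change of 2. The line is shifted to the right of the grey bars in the first and the middle panel and is centred near 0 in NR vs RA.

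A group of 3 members handles retinoids or responds to them. *Tgm2*, which encodes tissue transglutaminase, an enzyme that cross-links proteins and a classical retinoid-responsive gene, had 21 and 21.7 CPM in Veh, 74.0 and 63.7 with RA, 34.9 and 35.9 with NR and 395 and 391 in NRRA. The groups did not overlap in any pair, and the NRRA mean was 5.68 times that of RA on the rule's scale. *Tgm2* rose in RA vs Veh (log2 fold change 1.58 ± 0.072 SE, adjusted p = 1.45e-15), and its value in NR vs Veh was 0.70 ± 0.077, short of 2-fold (adjusted p = 3.02e-08). *Crabp2*, the carrier that hands retinoic acid to its nuclear receptors, had 10.3 and 9.73 CPM in Veh, 25.9 and 25.1 with RA, 9.11 and 9.58 with NR and 62.9 and 65.6 in NRRA. It rose with RA (1.24 ± 0.086, adjusted p = 7.14e-12), and NR libraries lay below the Veh libraries by less than the test resolves (-0.13 ± 0.10, adjusted p = 0.329). *Adh1*, an alcohol dehydrogenase that also oxidizes retinol, was 6.46 and 6.20 CPM in NRRA against 1.30 to 2.98 in the other 6 libraries, and was called in none of the single-treatment comparisons, although without Veh replicate 1 its NR value was 1.11 and passed.

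These 3 were the only members on a list of 42 genes of retinoid uptake, metabolism and reception. Of the 36 genes tested on that list, 10 were called higher and 2 lower in RA vs Veh, and 3 higher and 5 lower in NR vs Veh. Over the 36 the median log2 value of NRRA vs RA was 0.15. Among well-known retinoic acid targets on the list, *Rarb* and *Cyp26a1* did not meet the rule, because NRRA was under 2 times RA. *Rarb*, a retinoic acid receptor, had 42.9 and 41.1 CPM in RA and 49.0 and 50.7 in NRRA. *Cyp26a1*, the enzyme that degrades retinoic acid, had 121 and 122 CPM in RA and 92.0 and 89.8 in NRRA. *Stra8* was 643 and 675 CPM in RA and 948 and 993 CPM in NRRA, higher than with RA alone but also under 2 times.

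**Figure D3:**
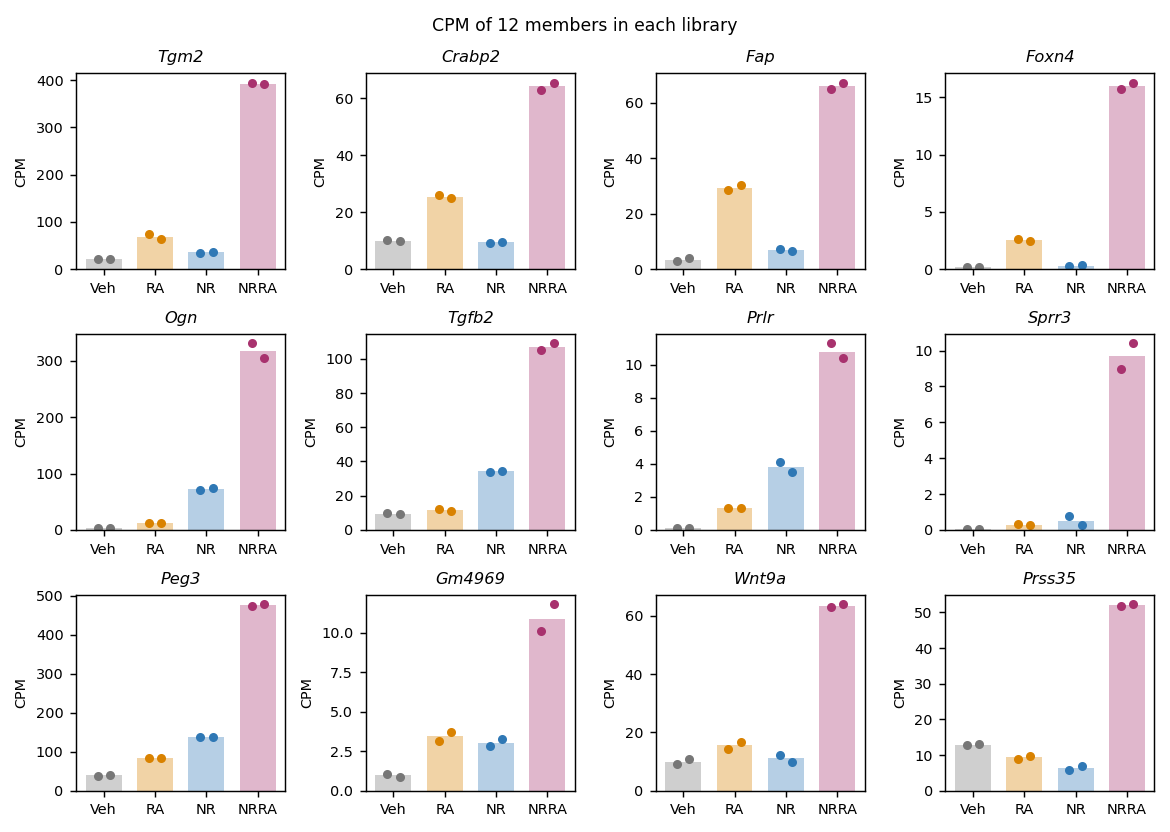
CPM (vertical axes, each starting at 0) of 12 of the 90 genes in the 4 groups, with a point per library and a bar for the mean of 2 libraries. *Crabp2*, *Fap* and *Foxn4* are higher in RA than in NR, *Tgfb2* is raised in NR and close to Veh in RA, *Prlr* and *Gm4969* are raised in both, and *Prss35* is lower in both than in Veh.

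The 11 members of the extracellular matrix, its proteases and their inhibitors included *Ogn*, which had the highest level per kilobase of exon of all coding members in NRRA (124 CPM per kb). *Ogn* encodes osteoglycin, a small leucine-rich proteoglycan that binds collagen fibrils. It had 2.51 and 2.65 CPM in Veh, 12.3 and 12.6 with RA, 71.1 and 73.7 with NR and 331 and 306 in NRRA. The 4 groups were fully separated in that order, and *Ogn* rose in both comparisons (RA vs Veh 2.17 ± 0.13, adjusted p = 4.73e-13, NR vs Veh 4.78 ± 0.10, adjusted p = 1.96e-23). The other 16 genes of its proteoglycan list were not members. *Aspn*, for instance, another proteoglycan of this family, had 115 and 113 CPM in NR and 24.4 and 26.0 in NRRA.

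*Fap*, fibroblast activation protein, is a membrane-bound peptidase of activated fibroblasts. Its 2.80 and 4.04 CPM in Veh stood against 28.6 and 30.2 with RA, 7.08 and 6.57 with NR and 65.0 and 67.3 in NRRA. It rose with RA by 3.01 ± 0.11 (adjusted p = 3.86e-17), while its NR value of 0.97 ± 0.15 stayed under the fold threshold (adjusted p = 7.43e-06), and passed it without Veh replicate 2 (1.26) or NR replicate 2 (1.04). *Fap* was lower in NR than in RA, at -2.04 on the log2 scale. *Adamts15*, a metalloproteinase that cleaves matrix proteoglycans, went from 0.521 and 0.549 CPM in Veh to 5.71 and 4.27 with RA, 3.64 and 3.67 with NR and 24.6 and 20.6 in NRRA. *Adamtsl1*, a related matrix protein without the protease domain, had 92.8 and 94.7 CPM in NRRA. *Adamts15* and *Adamtsl1* rose with RA (3.08 and 1.80 on the log2 scale) and with NR (2.73 and 2.26).

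*Prss35*, which encodes an inactive serine protease homologue, had 12.7 and 13.0 CPM in Veh, 9.03 and 9.72 with RA, 5.76 and 7.05 with NR and 51.8 and 52.3 in NRRA. It was the only member called lower with a single treatment, with -1.02 ± 0.11 in NR vs Veh (adjusted p = 1.75e-08). That value is at the fold threshold, since the call was lost without Veh replicate 2 (-1.0) and without NR replicate 1 (-0.88). *Arsi*, arylsulfatase I, was 10.7 and 10.9 CPM in NR, 5.12 to 5.97 in Veh and RA and 40.0 and 43.1 in NRRA, and was called higher in NR vs Veh (1.02 ± 0.12, adjusted p = 6.76e-08). *Tnxb*, tenascin X, *A2m*, the protease inhibitor alpha-2-macroglobulin, and *Fbln7*, fibulin 7, had NRRA means of 9.86, 11.8 and 5.16 CPM. Of these only *Fbln7* was called with a single treatment, higher with RA (1.67 ± 0.33, adjusted p = 0.000197). *Serpinb6b*, a serpin, rose in both comparisons, by 1.18 and 1.12.

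A further 13 members encode secreted signals or proteins that bind them. *Tgfb2*, a ligand of the TGF-beta family that promotes matrix production, had 9.71 and 9.38 CPM in Veh, 12 and 10.9 with RA, 34.1 and 34.6 with NR and 105 and 109 in NRRA. It rose with NR (1.82 ± 0.082, adjusted p = 5.59e-16), and its RA value of 0.15 ± 0.10 did not pass the test (adjusted p = 0.22). *Wnt9a*, a Wnt ligand, had 9.29 and 10.8 CPM in Veh, 14.5 and 16.9 with RA, 12.3 and 10.0 with NR and 63.0 and 64.0 in NRRA. The Veh and NR libraries overlapped, and *Wnt9a* was called in neither comparison with Veh (0.56 ± 0.11 with RA, 0.11 ± 0.11 with NR). *Wnt10b*, a second Wnt ligand, was low throughout, at 4.17 and 4.0 CPM in NRRA, and was called higher with RA (1.64 ± 0.36, adjusted p = 0.000562) and with NR (1.24 ± 0.38, adjusted p = 0.0102). The NR call of *Wnt10b* was lost without Veh replicate 2 (adjusted p = 0.129) and without NR replicate 2 (adjusted p = 0.0724).

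Binders of bone morphogenetic proteins were present beside a ligand of that family. *Crim1*, a membrane protein that binds them, was at 269 and 264 CPM in NRRA and 73.1 to 125 CPM elsewhere, and *Chrdl1*, a secreted antagonist, rose from 0.616 and 0.649 CPM in Veh to 2.08 and 3.41 in RA and 2.74 and 2.38 in NR. *Bmp6* itself had 34.6 and 38.3 CPM in NRRA and 10.8 to 18.5 in the other libraries, and was not called with either treatment. *Angpt4*, a ligand of the endothelial receptor TIE2, and *Ntn4*, netrin 4, a laminin-related basement membrane protein, had NRRA means of 19.8 and 23.1 CPM, and neither was called with RA or NR alone. Without Veh replicate 1 the RA value of *Angpt4* was 1.04 and passed, as did the NR value of *Ntn4* without NR replicate 1 (1.01).

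There were 4 cytokines among the 90, out of a list of 49 chemokine and cytokine genes. *Ccl20*, a chemokine that attracts CCR6-bearing leukocytes, had 0.332 and 0.0499 CPM in Veh, 0.519 and 0.646 with RA, 3.59 and 3.15 with NR and 9.64 and 10.7 in NRRA. It rose with NR (4.04 ± 0.37, adjusted p = 9.86e-10), and its RA call (adjusted p = 0.033) was lost without Veh replicate 2 (adjusted p = 0.32) and without RA replicate 2 (adjusted p = 0.185). *Cxcl11*, an interferon-induced chemokine annotated as a polymorphic pseudogene in the reference strain, had 5.65 and 5.20 CPM in NRRA and rose with NR (2.58 ± 0.37, adjusted p = 1.98e-06). *Il15*, a growth factor of lymphocytes, was called with RA (1.19 ± 0.32, adjusted p = 0.00339) and with NR (1.10 ± 0.32, adjusted p = 0.00694), and both calls were lost without Veh replicate 2 (adjusted p = 0.0724 and 0.123), the NR call also without NR replicate 1, where the value was 1.0. *Tnfsf13b*, the B cell survival factor BAFF, was called in neither. Of the 43 genes tested on the list, 2 were called higher and 7 lower with RA, and 11 higher and 7 lower with NR.

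Receptors and other surface proteins made up 12 members. *Prlr*, the prolactin receptor, had 2 reads in each Veh library, 25 and 37 with RA, 87 and 94 with NR and 306 and 311 in NRRA. Its level was 13.5-fold that of Veh in RA (95% interval from counting error 5.02 to 51.2) and 38.7-fold in NR (14.9 to 144), and both calls passed the test (adjusted p = 1.37e-06 and 1.1e-11). *Npr3*, the clearance receptor of natriuretic peptides, had 0.616 and 0.848 CPM in Veh, 3.48 and 3.84 with RA, 5.29 and 5.08 with NR and 14.2 and 14.4 in NRRA, and rose in both comparisons (2.23 ± 0.24 and 2.79 ± 0.22). *Grpr*, the receptor of gastrin-releasing peptide, had 2 and 1 reads in Veh, 5 and 5 with RA, 16 and 25 with NR and 121 and 118 in NRRA, and was called with NR alone (adjusted p = 3.54e-05), at 11.7-fold (3.73 to 59.0).

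*Tmem119*, a bone-anabolic membrane protein also used as a marker of microglia, had the highest level of these 12 per kilobase of exon, at 49.9 CPM per kb in NRRA and 8.71 in Veh. It lay at 117 and 114 CPM in NRRA and 18.2 to 33.7 CPM in the other libraries and was not called with a single treatment. *Vsir*, an immune checkpoint protein, had an NRRA mean of 58.3 CPM, and *Flrt3*, an adhesion protein, rose with NR (1.19 ± 0.13, adjusted p = 3.2e-08). *Adra2a*, an adrenergic receptor, was 25.4 and 22.2 CPM in NRRA, and was called higher in NR than in RA (1.23 ± 0.14, adjusted p = 4.21e-08) but in neither against Veh. *Pcdh10*, a protocadherin, and *Itga8*, an integrin subunit, had means of 7.89 and 14.7 CPM in NRRA, and their values against Veh were all below 0, from -0.74 to -0.14, none of them called. Without Veh replicate 1 the RA value of *Itga8* was -1.0 and passed. *Art2a*, an ADP-ribosyltransferase annotated as a polymorphic pseudogene, had no read in Veh, 1 and 2 with RA, 2 and 5 with NR and 62 and 61 in NRRA, at least 14.8-fold higher than 3 counts per Veh library. Because only NRRA brought *Art2a* through the filter on low counts, its single-treatment values are given without a test.

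A group of 5 members belongs to the cornified envelope, the cross-linked protein shell of keratinocytes that transglutaminases assemble. *Sprr3*, a small proline-rich precursor of that shell, had the largest ratio of all, 10.1. It had 1 read in each Veh library, 6 and 7 with RA, 16 and 7 with NR and 243 and 312 in NRRA, or 8.97 and 10.4 CPM in NRRA against at most 0.756 CPM elsewhere. Its fold over Veh was 5.67 in RA (1.28 to 51.8) and 9.83 in NR (2.43 to 86.0), given without a test because only NRRA brought *Sprr3* through the filter on low counts. *Sprr2b*, with 83 and 91 reads in NRRA, rose with NR (19 and 19 reads, adjusted p = 1.46e-05), as did *Scel*, sciellin, with 3.99 and 3.93 CPM in NRRA and 1.28 and 1.22 in NR (adjusted p = 7.5e-06). *Flg*, filaggrin, went the other way, with 21 and 40 reads in RA (adjusted p = 6.47e-07), 2 and 2 with NR and 102 and 106 in NRRA. *Sprr2g*, annotated as a polymorphic pseudogene, had 9.38 and 9.79 CPM in NRRA and was not called with either treatment, its RA value passing without Veh replicate 1 (1.11). Reads of the *Sprr* genes, which are close relatives of each other, may have been divided among copies, so their single values are uncertain.

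The cornified envelope and keratin list held 4 of these members. Of its 42 genes only 24 were tested, of which 12 were called higher and 2 lower with RA, and 3 higher and 10 lower with NR. *Sprr1a* had 53.6 and 54.4 CPM in RA, 0.236 and 0.0742 with NR and 5.06 and 5.20 in NRRA, and *Ivl*, involucrin, had 47.8 and 50.2 in RA and 4.95 and 5.13 in NRRA. *Krt5* and *Krt14*, the keratins that define basal keratinocytes, had at most 0.0717 CPM in any library. The summed level of 14 keratinocyte markers was 41.2 to 42.0 CPM in Veh, 123 to 125 with RA, 17.7 to 21.6 with NR and 39.1 to 41.7 in NRRA, and the part of such cells in the values of the 5 members was not tested.

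A group of 7 members regulates transcription or RNA. *Peg3*, an imprinted zinc finger gene, took the most reads of the 90, with 37.9 and 41.6 CPM in Veh, 84.1 and 83.2 with RA, 138 and 139 with NR and 473 and 478 in NRRA. It rose with NR (1.77 ± 0.053, adjusted p = 6.78e-20), and its RA value of 0.97 ± 0.054 was just short of 2-fold (adjusted p = 1.02e-13) and passed without Veh replicate 2 (1.06). *Zim1*, an imprinted zinc finger gene 7.44 kb away, followed with 0.948 and 2.10 CPM in Veh, 4.72 and 5.27 with RA, 3.87 and 5.05 with NR and 22.2 and 23.8 in NRRA, and was called with RA (1.64 ± 0.23) and NR (1.55 ± 0.23). *Foxn4*, a forkhead factor known from retinal and spinal progenitors, had 3 reads in each Veh library, 50 and 68 with RA, 5 and 9 with NR and 426 and 488 in NRRA. Its RA level was 17.2-fold that of Veh (7.65 to 47.7, adjusted p = 2.95e-09), and its NR level was 1.99-fold (0.72 to 6.33, adjusted p = 0.251). *Elavl3*, an RNA-binding protein of neurons, rose with RA (2.86 ± 0.28) and with NR (1.37 ± 0.35).

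*Gm4969* encodes MEIOSIN, the germ cell partner of STRA8 in switching on meiotic genes. It had 1.09 and 0.898 CPM in Veh, 3.17 and 3.73 with RA, 2.83 and 3.27 with NR and 10.1 and 11.8 in NRRA. RA and NR overlapped and both lay above Veh, and *Gm4969* rose with RA (1.70 ± 0.24, adjusted p = 1.86e-06) and with NR (1.59 ± 0.24, adjusted p = 6.09e-06). It was the only member among 24 genes of meiotic entry. Of the 23 genes tested on that list, 8 were called higher with RA and 3 with NR. None of the 15 germ cell markers was a member, which is near the background for a list this short, since 90 of the 20477 genes tested were members. Among the other genes of the list, *Rec8* had 79.4 and 80.0 CPM in RA and 79.1 and 78.9 in NRRA, and *Sycp3* had 18.5 and 21.7 with RA, 19.1 and 19.4 with NR and 37.2 and 37.1 in NRRA, below the ratio that the rule asks for.

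*Tgtp1* and *Tgtp2*, interferon-induced GTPases of the defence against intracellular parasites, lie 63.0 kb apart on chromosome 11 and are near-identical, so that reads may have been divided between them. *Tgtp2* had 3.65 and 3.44 CPM in Veh, 4.36 and 5.09 with RA, 18.1 and 16.7 with NR and 40.9 and 44.7 in NRRA, and *Tgtp1* had 33.0 and 35.9 CPM in NRRA. Both rose with NR (2.26 ± 0.12 and 2.45 ± 0.17) and neither was called with RA. Their neighbour *Ifi47*, a GTPase of the same family, had means of 30.3 CPM in NR and 32.8 in NRRA. The 37 genes of the interferon response list, to which neither member belonged, held 19 called higher with NR, and their summed level was 3990 to 4280 CPM in NR and 4240 to 4500 in NRRA.

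A group of 9 members is part of the cytoskeleton and contraction. *Ppp1r12b*, a subunit of myosin phosphatase, had 110 and 112 CPM in NRRA against 29.4 to 57.1 in the other libraries. *Dmd*, dystrophin, with 25.6 and 25 CPM in NRRA, *Pgm5*, a protein of adherens junctions in muscle, with 30.3 and 30.9, and *Rnd1*, a small GTPase that loosens cell adhesion, with 29.8 and 29.3, were not called with either treatment, although *Dmd* was near the fold threshold in both (0.95 and 0.98) and passed in both without Veh replicate 2 (1.08 and 1.11) and in NR vs Veh without NR replicate 1 (1.06), and the RA value of *Rnd1* passed without Veh replicate 1 (1.03). *Mrvi1*, a substrate of cGMP kinase in smooth muscle, rose with NR (1.68 ± 0.23, adjusted p = 1.43e-06), and so did *Limch1*, an activator of myosin, which is at the fold threshold and lost the call without either RA or either NRRA library (1.0), while *Coro2b*, a coronin, rose with RA and with NR (1.32 and 1.40). The summed level of 9 markers of smooth muscle and myoid cells was also highest in NRRA, at 1220 to 1230 CPM, with 741 to 756 in NR, 235 to 241 in Veh and 208 to 210 in RA. Of that sum, *Acta2*, smooth muscle actin, which activated fibroblasts also express, gave 496 and 501 CPM in NR and 908 and 911 in NRRA, whereas *Myh11*, the smooth muscle myosin, had 3.45 and 4.01 CPM in NR and 3.43 and 3.66 in NRRA. Over all 9 markers the median log2 value was 1.01 in NR vs Veh and 0.54 in NRRA vs NR. None of the 9 markers was a member, and their part in the values of the contractile members was not tested.

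A group of 9 more members is known from neurons. *Cplx2*, complexin 2 of synaptic vesicle release, had 43.0 and 42.0 CPM in NRRA, and its values with RA (-0.34 ± 0.088) and NR (-0.52 ± 0.09) were below 0. *Ppp1r1b*, the dopamine signalling protein DARPP-32, was called higher with RA (1.01 ± 0.24, adjusted p = 0.00105), a call that was lost without RA replicate 2 at a value of 0.78, and *Vsnl1*, a neuronal calcium sensor, was called higher with RA (1.83 ± 0.47, adjusted p = 0.00248), which was lost without RA replicate 2 (1.12, adjusted p = 0.171). With NR against Veh 0 of the 9 were called, where the share over all genes tested was 5.33%, so that a count this low is near the background. The summed level of 14 neuron and glia markers was 42.3 to 43.4 CPM in Veh, 50.6 to 55.4 with RA, 56.8 to 59.0 with NR and 62.1 to 62.4 in NRRA. Of that sum *Elavl3*, the only member on that list, gave 0.449 to 0.521 CPM in Veh and 8.05 to 8.79 in NRRA. The part of such cells was not tested.

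The remaining 12 enzymes and other proteins, and *Cfap99* and *Cfap100*, named for cilia and flagella, share no single function. *Ttc28*, a large protein of the dividing cell's midzone, had 239 and 241 CPM in NRRA and 64.1 to 120 in the other libraries. *Cmah*, which makes the sialic acid that humans lack, had 0.237 and 0.299 CPM in Veh, 0.779 and 1.00 with RA, 2.74 and 3.19 with NR and 6.79 and 6.39 in NRRA, and rose in both comparisons (1.65 and 3.43). *Gulp1*, an adaptor for engulfment of dying cells, rose with NR (1.61 ± 0.15). *Cfap99* rose with RA (2.33 ± 0.32), and *Cfap100* rose with both (1.82 and 2.43), the RA call being lost without Veh replicate 2 (adjusted p = 0.0716) or RA replicate 2 (adjusted p = 0.11). *Atp12a*, a proton pump, was called with RA (1.6 ± 0.50, adjusted p = 0.0115), and the call was lost without Veh replicate 2 (adjusted p = 0.0606) and without RA replicate 1 (0.0753).

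Several of the 90 are neighbours or overlap in the genome (GENCODE M21, GRCm38). *Gm20412*, a non-coding gene model at chr2:158117154-158117905, lies wholly within exons of *Tgm2* at chr2:158116402-158146436 on the other strand, and its 107 and 108 CPM in NRRA followed those of *Tgm2*. *Gm29491* overlaps the start of *Tgfb2* on the other strand with 24.5% of its exon bases, and *1700003D09Rik* overlaps *Ppp1r1b* with 33.1%. The library protocol keeps the strand, but whether the counting used it is not stated in the sources used here, so reads of these 3 gene models and of their partners cannot be told apart. *A730049H05Rik*, which had the second largest ratio, 5.93, at 17.9 and 17.0 CPM in NRRA and 1.09 to 2.64 elsewhere, shares 36.9% of its exon bases with *Adamts9* on the other strand.

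In the cornified envelope cluster of chromosome 3, *Sprr2b* and *Sprr2g* lay 55.8 kb apart and *Sprr2g* and *Sprr3* 81.3 kb apart, with the non-member *Sprr2h* at means of 14.7 CPM in RA and 0.229 in NRRA among them. *Tmem252* and *Pgm5* are separated by 0.782 kb on chromosome 19 and *Rnd1* and *Wnt10b* by 93.2 kb on chromosome 15. The genes between *Rnd1* and *Wnt10b*, such as *Ddx23* with a mean of 116 CPM in NRRA and 128 in Veh, were not members.

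By annotation 84 of the 90 were protein coding (93.3%, against 87.9% of the 14969 genes at 2 CPM in NRRA), 3 were polymorphic pseudogenes, 2 processed transcripts and 1 antisense. The median exon length was 4651 bases against 4202, and 3 of the 90 lay on the X chromosome.

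RefSeq promoter sequences (GRCm38.p6) were found for 67 of the 90 genes. The other 23 were not searched. Among them were many members called higher with RA, such as *Tgm2*, *Gm20412*, *Crabp2*, *Fap*, *Adamts15*, *Adamtsl1*, *Chrdl1*, *Il15*, *Ppp1r1b* and *Atp12a*. The search for response elements thus leaves out a good part of the genes that rose with RA. The 250 bases before each start were searched on both strands for the retinoic acid response elements with 5 or with 2 bases between repeats, for the STRA8 and MEIOSIN motif (CNCCTCAG), for the amino acid response element (TGATGNAAN), for the CLEAR element of lysosomal genes and for the TATA box (TATAAA). Among the 67 genes searched, the element with 5 bases between repeats was found before *Tnfsf13b* alone (0.0883% of all 32851 promoters hold it). The element with 2 bases was found before none of the 67 (0.174% of all). The STRA8 and MEIOSIN motif was in 3 of the 88 member promoters (3.41%, against 6.42% of all), those of *Gm4969*, *Limch1* and *1700003D09Rik*. The amino acid response element was in 1 (1.14%, against 3.44% of all), that of *Kcnab1*, and the CLEAR element in none (0.24% of all). With only 3 and 1 matches among 88 promoters, the shares of the STRA8 and MEIOSIN motif and of the amino acid response element are near the background. They are no result about the members. A TATA box on the gene's own strand, with its first base 25 to 35 bases before the start, was found for *Sprr3*, *Sprr2b*, *Tgfb2*, *Angpt4*, *Elavl3* and *Adra2a*, in 6 of the 88 promoters of the 67 genes (6.82%), while 1.75% of all promoters have one there.

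A choice of 6 stretches with these matches is shown 5′ to 3′ on the strand of the gene, the match in capitals, to let the members that share a TATA box be compared and to show the matches for the RA and STRA8 pathways. A match is a description of letters and not of binding.
*Sprr3*, chr3:92458721-92458780, minus strand, TATA box: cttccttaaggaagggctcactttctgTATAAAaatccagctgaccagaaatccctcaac
*Tgfb2*, chr1:186705990-186706049, minus strand, TATA box: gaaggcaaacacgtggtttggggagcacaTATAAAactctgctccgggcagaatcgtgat
*Angpt4*, chr2:151911147-151911206, plus strand, TATA box: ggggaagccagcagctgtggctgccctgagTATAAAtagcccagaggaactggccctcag
*Elavl3*, chr9:22052024-22052083, minus strand, TATA box: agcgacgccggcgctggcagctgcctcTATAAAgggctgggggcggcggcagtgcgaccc
*Gm4969* (*Bhmg1* in RefSeq), chr7:19118345-19118404, minus strand, STRA8 and MEIOSIN motif: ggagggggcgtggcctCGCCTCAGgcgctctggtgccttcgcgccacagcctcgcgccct
*Tnfsf13b*, chr8:10006231-10006275, plus strand, retinoic acid response element with 5 bases between repeats: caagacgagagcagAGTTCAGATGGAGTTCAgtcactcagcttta

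The genes with a TATA box near the start had different calls with the single treatments, since *Tgfb2* and *Sprr2b* were called higher with NR and not with RA, *Elavl3* with both, and *Angpt4* and *Adra2a* with neither. *Tnfsf13b*, the only searched gene with the response element, had RA values of 0.935 and 0.753 CPM against 1.09 and 0.499 in Veh.

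How far NRRA exceeded what the single effects add up to was described by the log2 effect of RA in NR medium minus its effect in complete medium. Since the rule asks for 2 times the higher of RA and NR, NRRA exceeds the sum of both for all 90 by construction. The rule also sets the log2 difference above 0 for genes that RA alone or NR alone did not raise by about 2-fold. Its sign was open only for genes that both raised further. The log2 difference had a median of 0.95, lay above 0 for 78 and below 0 for 12, and was at least 1 for 42. Over all genes tested the median was 0.018 and 52.9% lay above 0. Because of the choice, the counts of the 90 above and below 0 are no result about these genes. *Prss35* (3.48 ± 0.14), *Pcdh10* (2.78 ± 0.32), *A730049H05Rik* (2.50 ± 0.31), *Ano4*, an anoctamin of the ion channel and scramblase family (2.39 ± 0.62), and *Itga8* (2.10 ± 0.21) had the largest values. Values near 0, as in *Ogn* (-0.11 ± 0.15), *Gm4969* (0.051 ± 0.32) and *Fap* (0.19 ± 0.17), mean that NRRA was near the product of both folds. *Npr3* (-0.84 ± 0.28) and *Prlr* (-2.15 ± 0.58) were under that product while still highest in NRRA, and *Prlr* has few reads in Veh.

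**Figure D4:**
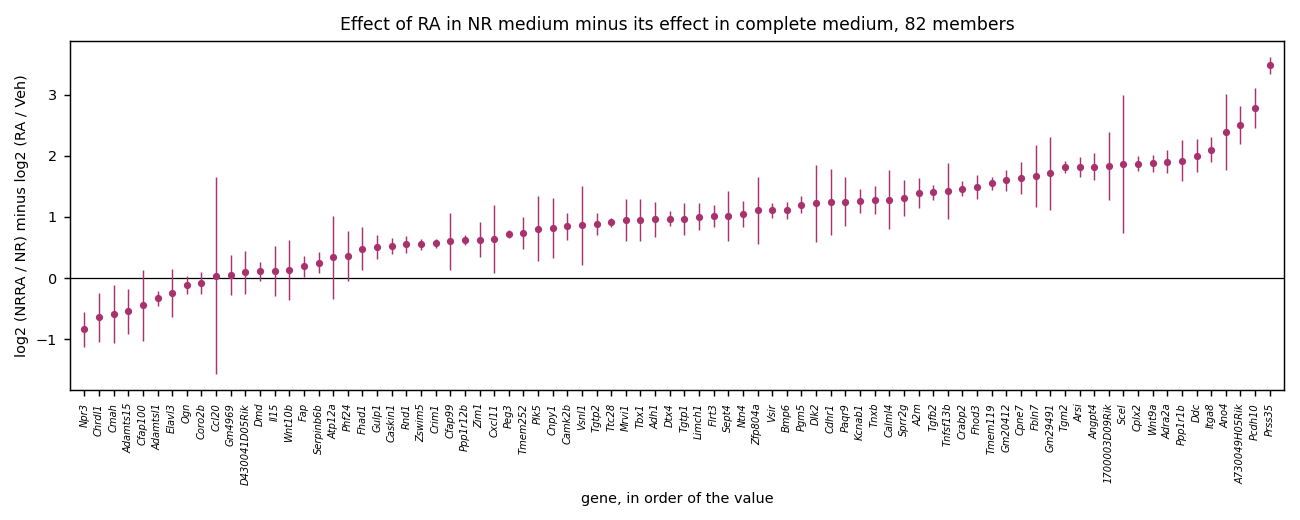
Log2 effect of RA in NR medium minus its log2 effect in complete medium (vertical axis, points with SE) for 82 genes with more than 3 reads in a Veh library, in order of the value (horizontal axis). It lies above 0 for 73 and below 0 for 9, with *Npr3* lowest and *Prss35* highest. The rule sets it above 0 for genes that RA alone or NR alone did not raise by about 2-fold.

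The cells from which the 90 transcripts came were not separated in these libraries, and the marker lists held few of them: 1 of 20 fibroblast markers (*Fap*), 1 of 14 keratinocyte markers (*Sprr3*), 1 of 14 neuron and glia markers (*Elavl3*), and 0 of the markers of germ cells, undifferentiated or differentiating spermatogonia, Sertoli, Leydig, smooth muscle, skeletal muscle, endothelial, macrophage, cartilage and adipose cells. Some lists had few markers that passed the filter on low counts: 2 of 9 for Leydig cells, 10 of 17 for Sertoli cells and 7 of 14 for keratinocytes. For skeletal muscle and for adipose cells it was 5 of 10 each. The 90 are a small part of the 20477 genes tested, so 0 or 1 member on lists this short is near the background. The number of members thus says little for any of the marker lists, also where all markers were tested. The markers of smooth muscle and of keratinocytes are given above, and the 15 markers of undifferentiated spermatogonia summed to 1160 to 1230 CPM in Veh, 496 with RA, 986 to 1000 with NR and 248 to 251 in NRRA. Fibroblast markers summed to 19600 to 20800 CPM in RA and 36200 to 37600 in NR, so that NR exceeded NRRA, whereas the 90 were chosen to be highest in NRRA. Of that sum, *Fn1*, fibronectin, gave 9750 and 9990 CPM in NR and 6550 and 6340 in NRRA. *Col1a1*, a collagen chain, gave 7480 and 7930 in NR and 8050 and 7690 in NRRA. Over the 20 markers the median log2 value of NRRA vs NR was -0.31. Of the 20 fibroblast markers, 1 was called higher with RA, the member *Fap* itself, and 5 with NR. Over all genes tested the shares called higher were 4.74% with RA and 5.33% with NR, so the RA count is near the background. The part of any of these cell types in the levels of the 90 genes was not tested.

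**Figure D5:**
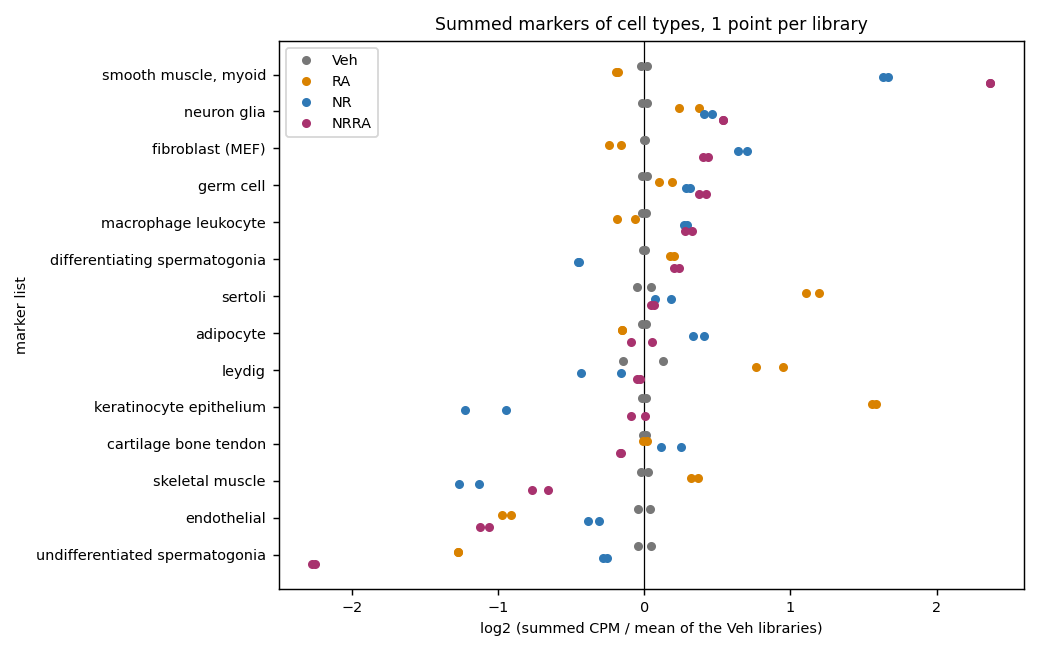
Summed CPM of each marker list in each library, as log2 over the mean of the 2 Veh libraries (horizontal axis), 1 point per library, with the lists (vertical axis) in order of their NRRA value. Smooth muscle and myoid markers are the highest in NRRA, markers of undifferentiated spermatogonia are the lowest, and those of keratinocytes and Sertoli cells are raised in RA and near Veh in NRRA.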

How the data were processed

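RNA-seq of 8 libraries (4 groups, 2 each) was used. The authors mapped reads of 101 cycles with STAR (2.6.1c), and per the labels' processing notes featureCounts (1.6.4) and mm10 were used. They deposited raw counts per gene, as whole numbers without normalization. All 8 count columns were matched by label, and 0 columns had no sample. Totals were 19261333 to 30023585, so genes near 2 CPM have wide errors.

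CPM were computed on column totals. Comparisons of Veh, RA and NR used edgeR (4.0.16) quasi-likelihood tests over all 8 libraries (TMM, filterByExpr, 20477 genes, 4 residual degrees of freedom, coefficient of variation 3.35%) with Benjamini-Hochberg adjustment. The model was also run on counts simulated from its own fitted means and spread, with changes put into RA only. Such a run cannot show how well the model suits the real cultures. SE is the log2 value over the root of F. Intervals of folds are exact binomial and cover counting error only.

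The members and lists were chosen with earlier results of these data known, and role groups after the members were seen. Members were named for the largest ratios, levels, calls and log2 differences, per list, near thresholds and as neighbours within 100 kb. Others were named after their values were seen. P-values set a difference between groups against the spread between the 2 libraries of a group. That spread was estimated over all 4 groups and shared across genes, so the NRRA libraries also enter it. Alternatives were other scalings, pseudocounts, thresholds and filters, DESeq2 (1.42.0), a replicate block and leaving out libraries. A member counted in the totals is not reported here by name or value.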

Additional observations from a re-analysis of the deposited data

How the results depend on the processing

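The number of genes that met the rule moved most with the ratio threshold, to 357 at 1.5 and 25 at 3. It was 78 with TMM-scaled and 77 with size-factor-scaled CPM, 106 and 68 with pseudocounts of 0.1 and 1, and 97 and 64 at 1 and 5 CPM, and 88 to 98 with libraries left out. Without the fold threshold, 52 of the 90 were higher and 5 lower in RA vs Veh (19.8% and 23.4% of all genes tested), 57 and 2 in NR vs Veh (21.7% and 22.2%), and 29 and 22 in NR vs RA (24.5% and 23.8%). With 1 library left out, 28 to 34 were called higher and 0 to 1 lower with RA, 33 to 38 higher and 0 to 1 lower with NR, and 15 to 18 higher and 8 to 10 lower in NR vs RA. The medians were 0.77 to 0.91, 0.83 to 0.94 and -0.03 to 0.06. That of NR vs RA changed sign, from -0.02 to 0.02 and 0.05 without RA replicates 1 and 2 and 0.06 without NR replicate 1. Over all 90 genes, 3 comparisons and the alternative fits, 3240 values in all, 52 lost a call, 38 gained one and 0 of the called values changed direction. DESeq2 lost 5 calls, of *Limch1*, *Cnpy1* and *Dlk2* in NR vs Veh and of *Ano4* and *1700003D09Rik* in NR vs RA. With the filter on low counts set without NRRA, chosen after seeing the data, 34 were called higher with NR and the other counts were as before..

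The labels number the replicates without saying that a number is shared by a culture, and the correlation of replicate differences between groups was -0.0334 to 0.0225. With a replicate block, 34 of the 90 were called higher with RA and 35 with NR, 1 was lower with NR, and 15 and 10 were higher and lower in NR vs RA. Depth limits members of a few CPM, and 7 had at most 3 reads in each Veh library.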
